A study of Mus musculus with 8 samples.

Results

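The amino acid transporter genes described here belong to 8 solute carrier families, Slc1, Slc3, Slc6, Slc7, Slc16, Slc36, Slc38 and Slc43. They were chosen by name alone, as every probe whose accession maps to a mouse gene symbol of these families, and 1 gene of the families was left out. This gave 103 of the 39429 probes, for 77 of the 21612 named genes on the array. Of the 77 genes, 74 are carriers or their heavy chains. The others are Slc6a21 and a pair of genes named for lying on the opposite strand of a carrier gene, Slc7a6os and Slc36a1os.

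AML12 is a hepatocyte line established from the liver of mice carrying a transforming growth factor alpha transgene, and irisin is the peptide cut from the membrane protein Fndc5. The RNA came from 4 samples of AML12 cells kept for 24 h in serum-containing medium without irisin (control). Another 4 samples were of cells kept for 24 h in the same medium with 0.5 µg/ml irisin. Each sample was labeled with Cy3 and hybridized to its own one-color Agilent array. The labels do not say whether the samples of a group came from separate cultures set up apart, so the p-values measure the spread between these samples, which may be technical.

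Amino acids cross membranes mainly through carriers. The main classes in liver cells are exchangers that trade one amino acid for another, sodium-driven carriers that accumulate them, and carriers of the lysosome that return the products of protein breakdown. Many exchangers are made of a light chain of the Slc7 family and a glycosylated heavy chain of the Slc3 family, and several carriers are known targets of the transcription factor Atf4, which is made when amino acids are short. The Slc16 family carries lactate, pyruvate, thyroid hormone, creatine and aromatic amino acids, so that not every gene of these families carries amino acids.

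The 75th percentile of the signal, to which each array was scaled, was 372 to 534 in the control group and 682 to 850 in the irisin group, 1.66 times higher on average. A level in the text below is the log2 signal over this percentile, and a difference is irisin minus control on that scale. The control arrays shared 1 slide and 1 scan and the irisin arrays shared another, so treatment cannot be told apart from slide or scan. The RNA came from whole cultures, so less RNA per cell and fewer cells with the transcript cannot be told apart either. Hepatocyte markers were present, with 11 of 12 listed tested and a mean control signal of 9633 for Alb (albumin) and 17056 for Hnf4a, a transcription factor that defines hepatocytes. The lowest mean control signals of the 11 were those of Apoa1 (73.7), Fgb (321) and Afp (493). None of the 11 was called by limma or by the methods' test, and 1 was lower at an unadjusted p under 0.05, against 23.6% of all genes tested. Of the markers of other cells, 4 of 5 were tested for bile duct, 2 of 5 for stellate cells or fibroblasts, 2 of 5 for macrophages and 2 of 4 for endothelium. The bile duct keratin Krt19 and the fibroblast marker Vim were bright, with mean control signals of 19107 and 34272. The defining markers of leukocytes (Ptprc), liver macrophages (Clec4f), stellate cells (Lrat) and endothelium (Cdh5) did not pass background on all arrays of either group, while Csf1r and Cd68 of macrophages (mean control signals of 121 and 139) and Kdr of endothelium (331) did. Of 21 markers tested over the 5 cell types, only the endothelial Pecam1 was called, lower by 0.61, at a mean signal of 21.6 in control and 23.5 in irisin cells. Kdr (-0.56, adjusted p = 0.00441), Csf1r (-0.49, adjusted p = 0.00139), the hepatocyte marker Krt18 (-0.47, adjusted p = 0.00522) and Vim (-0.40, adjusted p = 0.00309) were lower in limma without reaching 1.5-fold. With quantile normalization the differences were -0.56 for Kdr, -0.46 for Csf1r, -0.04 for Krt18 and -0.13 for Vim, so those of Krt18 and Vim depended on the scaling. The part of other cell types in the results below was not tested.

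A total of 44 of the 77 genes had a probe that passed background on every control array or on every irisin array, and these were tested with limma. A gene was called when it differed at least 1.5-fold with an adjusted p under 0.05. One gene was called higher with irisin, 1 of 44 against 0.531% of all 14311 genes tested. It was Slc16a12, a carrier of creatine. Another 11 genes were called lower, against 10.2% of all genes tested. They include Slc1a7, Slc6a16, Slc16a1, Slc16a3, Slc16a7, Slc16a8, Slc16a11, Slc36a3, Slc38a11 and Slc43a3. All 11 were among the 18 members in the 3 dimmest deciles of the tested genes, where 31.7% of all genes were called lower, and their calls, and for 4 of them the direction, depended on the scaling as described further on. Among the 26 members in the upper 7 deciles, none was called lower, where only 101 of all 10018 genes in these deciles were. At an unadjusted p under 0.05 there was 1 lower gene among these 26, against 12.4% of all genes in these deciles, and the methods' test, an unmoderated test on the same values, called none of them in either direction. The median difference was -0.056 over the 44 members and -0.064 over all genes tested.

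**Figure D1:**
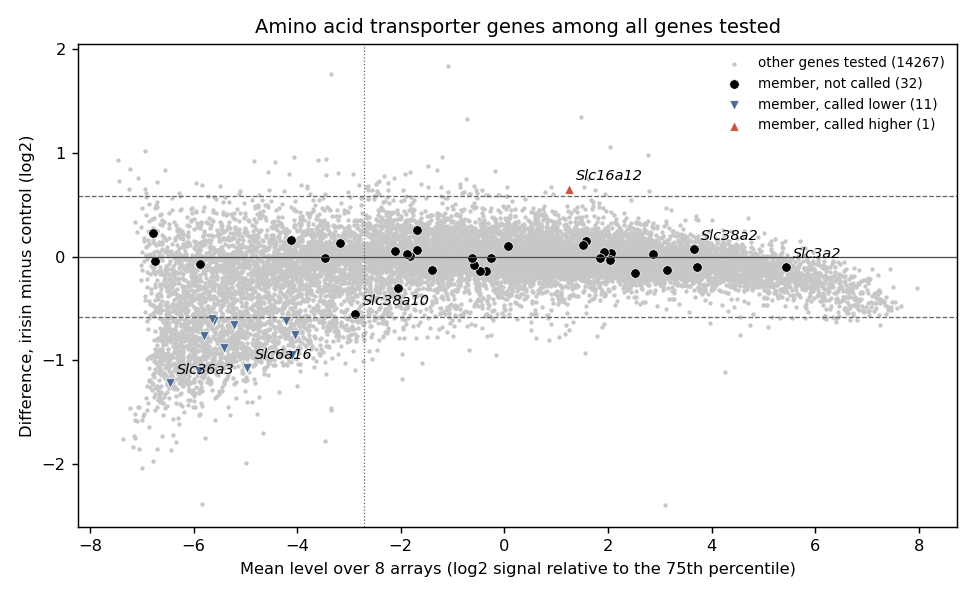
The difference between irisin and control cells (y axis, log2) is plotted over the mean level of each tested gene (x axis, log2 scale, relative to the 75th percentile), with the 44 members over the other genes in grey. Dashed lines mark 1.5-fold and the dotted line marks the upper edge of the 3 dimmest deciles, left of which all 11 members called lower lie.

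The members with the highest signal did not differ between the groups by more than the threshold. Signals of different probes do not rank transcripts by amount, so the 12 members with the highest control signal serve only as the best measured ones. Their differences lay between -0.16 and 0.15, and all 12 had a 95% confidence interval inside the 1.5-fold limits. None of the 12 was called by limma or by the methods' test, and none had an unadjusted p under 0.05. With no scaling between the arrays 11 of the 12 were called higher, by 0.58 to 0.89 over the 12, where the median of all genes was 0.67. Of all 14311 genes tested, 9562 were called higher in that setting.

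Slc3a2 encodes the heavy chain 4F2hc (CD98), which brings several Slc7 light chains to the cell surface. Its level was 5.53, 5.40, 5.61 and 5.41 on the control arrays and 5.23, 5.57, 5.29 and 5.44 on the irisin arrays. The ranges overlapped, and the difference was -0.10 (95% interval -0.32 to 0.11, adjusted p = 0.519). Slc7a5 is its partner in LAT1, the exchanger of large neutral amino acids such as leucine. It had levels of 2.19, 2.05, 2.02 and 1.91 in control cells and 2.03, 2.34, 1.84 and 2.10 in irisin cells, a difference of 0.03 (95% interval -0.22 to 0.28). A dim second probe for Slc7a5, at a mean control signal of 37.96 against 1940 for the first, gave -0.51 (adjusted p = 0.00431), so the probes of this gene disagreed. Slc7a7 encodes the light chain y+LAT1, which exports cationic amino acids. Its levels were 1.80, 1.73, 2.02 and 2.06 in control cells and 1.86, 2.13, 1.78 and 2.01 in irisin cells, with a difference of 0.04 (95% interval -0.20 to 0.29). The related light chain Slc7a6 differed by -0.02 (95% interval -0.20 to 0.17). Slc3a1, the other heavy chain, differed by 0.10 (95% interval -0.08 to 0.28).

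Slc7a1 encodes CAT-1, the main importer of arginine and lysine in growing cells. Its levels were 3.54, 3.15, 2.96 and 3.19 in control cells and 2.80, 3.46, 2.95 and 3.12 in irisin cells. These ranges overlapped, and the interval of the difference was wide for so bright a probe (-0.13, 95% interval -0.48 to 0.22). Slc7a2, the cationic carrier known from hepatocytes, was close to background, with mean signals of 4.65 and 7.28 and only 2 of 4 control arrays well above background. It was not called at a difference of -0.04.

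Slc1a5 encodes ASCT2, an exchanger that takes up glutamine. Its control levels were 1.36, 1.40, 1.69 and 1.58 and its irisin levels 1.53, 1.69, 1.66 and 1.73, a difference of 0.15 (95% interval -0.07 to 0.36). A second, dimmer Slc1a5 probe gave -0.02. Slc1a4 encodes the related exchanger ASCT1 of alanine, serine and cysteine, with levels of 2.74, 2.60, 2.51 and 2.56 in control cells and 2.28, 2.72, 2.48 and 2.31 in irisin cells. Irisin replicates 1, 3 and 4 lay below every control array, and replicate 2 lay within the control range, and the difference of -0.16 was not called (95% interval -0.40 to 0.09). The glutamate carrier Slc1a2 differed by 0.05.

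Slc38a2 encodes SNAT2, the sodium-driven carrier of small neutral amino acids that cells raise when starved of them. It had levels of 3.41, 3.63, 3.83 and 3.63 on the control arrays and 3.78, 3.40, 3.85 and 3.75 on the irisin arrays. Its difference was 0.07 (95% interval -0.20 to 0.34), and the groups overlapped. Slc38a3, the glutamine carrier SNAT3, differed by 0.00 (95% interval -0.23 to 0.24). SNAT1 and SNAT4, encoded by Slc38a1 and Slc38a4, passed background on none of the arrays.

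The Slc6 carriers of osmolytes, creatine and glycine were also bright. Slc6a6, the taurine carrier, had levels of 3.91, 3.81, 3.52 and 3.84 in control cells and 3.75, 3.98, 3.40 and 3.52 in irisin cells. Its difference was -0.11 (95% interval -0.41 to 0.20). Slc6a8, the sodium-driven creatine carrier, had levels of 2.92, 2.77, 2.87 and 2.83 in control cells and 2.79, 2.96, 2.83 and 2.92 in irisin cells, a difference of 0.03 with one of the narrower intervals (-0.15 to 0.20). Slc6a9, the glycine carrier GlyT1, had control levels of 1.81, 1.82, 1.93 and 1.84 and irisin levels of 1.63, 2.07, 1.73 and 1.93. It differed by -0.01 (95% interval -0.24 to 0.22), and its second probe gave 0.00. In the Slc16 family Slc16a6 was the brightest, with control levels of 2.05, 2.11, 2.08 and 1.99 and irisin levels of 1.81, 1.99, 2.10 and 2.21, a difference of -0.03 (95% interval -0.24 to 0.18). Slc7a6os, which is not a carrier, was the last of the 12, at 1.45, 1.36, 1.56 and 1.48 in control cells and 1.55, 1.58, 1.56 and 1.61 in irisin cells (difference 0.11, 95% interval -0.06 to 0.28).

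**Figure D2:**
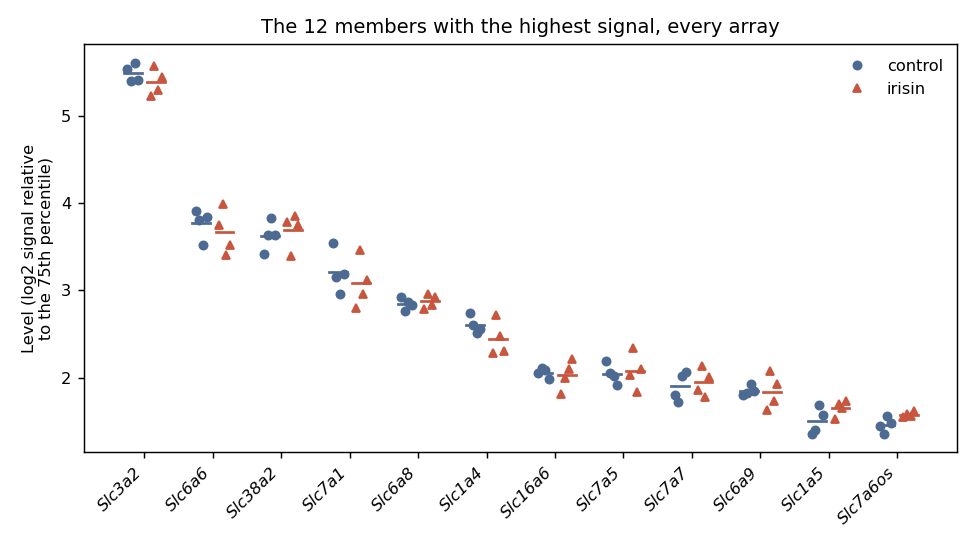
Levels (y axis, log2 scale, relative to the 75th percentile) of the 12 members with the highest signal on each of the 4 control arrays (circles) and 4 irisin arrays (triangles), with the group means as lines. The groups overlap for all 12, and no difference passes 0.16 in size.

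Slc16a12 was the one member called higher. It encodes MCT12, a carrier of the monocarboxylate family that is known to move creatine. As deposited, before scaling, its signal was 684, 877, 910 and 1137 on the control arrays and 2483, 1457, 3134 and 2551 on the irisin arrays, so that every irisin array lay above every control array. After scaling, the levels were 0.88, 0.85, 0.77 and 1.19 in control cells and 1.64, 1.10, 1.96 and 1.58 in irisin cells. Irisin replicate 2 then lay below control replicate 4, and the other irisin arrays lay above all control arrays. The difference was 0.65 (SE 0.17, 95% interval 0.27 to 1.02, 1.57-fold, adjusted p = 0.0164). In an exact permutation test (two-sided, 70 assignments) p was 0.0571, where 0.0286 is the smallest possible. Slc16a12 was called under every scaling tried, with differences of 0.65 after normexp, 0.64 after quantile normalization, 0.67 after cyclic loess, 1.18 when scaled to spike-in probes and 1.39 when not scaled. It was not called by the methods' test (adjusted p = 0.0737), and without irisin replicate 3 its difference of 0.52 was under 1.5-fold. Slc16a12 and Slc6a8 both carry creatine, and the differences were 0.65 and 0.03.

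**Figure D3:**
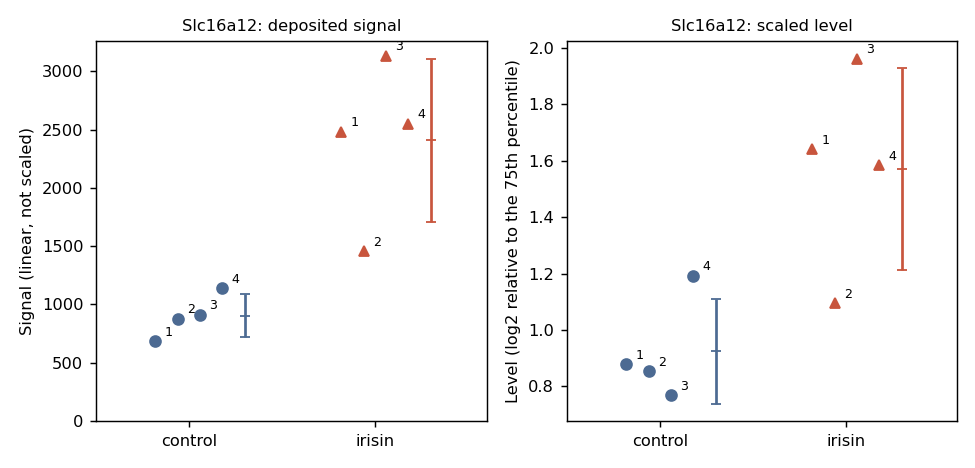
Slc16a12 on every array, as the deposited signal (left, linear) and as the level (right, log2 scale, relative to the 75th percentile), numbered by replicate. Bars give the mean ± SD of 4 arrays; the signals do not overlap between the groups, while irisin replicate 2 falls below control replicate 4 after scaling.

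The promoter of Slc16a12 is printed because it is the only gene of the 8 families called higher. The sequence comes from RefSeq on GRCm38.p6 and runs from 250 bases before to 50 bases after an annotated start that lies 165 bases inside the outer end of the gene, at chr19:34747279-34747578 on the minus strand. It holds neither of the motifs searched in all promoters, TTGCATCA (the C/EBP-ATF response element) and TGACGTCA (the ATF/CRE site), on either strand.
Slc16a12: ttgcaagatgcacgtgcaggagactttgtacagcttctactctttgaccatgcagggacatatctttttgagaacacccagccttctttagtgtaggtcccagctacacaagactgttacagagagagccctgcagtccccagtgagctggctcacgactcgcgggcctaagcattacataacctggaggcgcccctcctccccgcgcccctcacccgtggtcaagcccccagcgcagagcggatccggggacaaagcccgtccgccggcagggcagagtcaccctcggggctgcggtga

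The 11 members called lower were all dim, and 10 of them are described here. Their signals lay between 4.58 and 44.4, and the brightest of the 10 was at the 20.7th percentile of the tested genes. Their levels fell by 0.60 to 1.22 relative to the 75th percentile, with no overlap between the groups for any of them. Of all 4293 genes in the 3 dimmest deciles, 1832 were also lower without overlap. The deposited signals of the 10 members moved less, with ratios of the irisin mean to the control mean between 0.733 and 1.10. For 4 of the 10 the mean signal was higher with irisin. With no scaling or with spike-in scaling none of the 11 was called. At an unadjusted p under 0.05 the scaled fit gave 13 lower members of 44, against 23.6% of all genes tested and 49.5% of those in the 3 dimmest deciles, and the methods' test called the same 11.

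Slc16a1, Slc16a3, Slc16a7 and Slc16a8 encode the proton-linked carriers of lactate and pyruvate (MCT1, MCT4, MCT2 and MCT3). The signal of Slc16a1 was 25.2, 29.2, 36.5 and 35.6 on the control arrays and 30.6, 34.3, 33.8 and 37.4 on the irisin arrays. These signals overlapped throughout, while the level fell by 0.62 after scaling (adjusted p = 0.00118) and was 0.12 higher, uncalled, with no scaling. It missed 1.5-fold without irisin replicate 1 (-0.56). Slc16a3 had signals of 12.8, 17.2, 17.9 and 15.7 in control cells and 15.3, 15.96, 16.7 and 18.5 in irisin cells, and its difference was -0.66 (adjusted p = 0.000364) with scaling and 0.07 without. Slc16a7 had signals of 31.3, 36.9, 44.4 and 36.9 in control cells and 36.8, 35.7, 32.6 and 42.0 in irisin cells, and its difference was -0.76 (adjusted p = 0.000350) with scaling and -0.02 without. A second Slc16a7 probe gave -0.07 and was not called. The retinal carrier Slc16a8 had signals of 10.6, 15.1, 16.5 and 18.9 in control cells and 9.0, 14.9, 14.7 and 17.2 in irisin cells, with a difference of -0.88 (adjusted p = 0.00579). Quantile normalization and cyclic loess called none of these 4 genes, with differences between -0.56 and -0.26.

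Slc16a11, whose substrate is less settled, had signals of 9.87, 11.4, 13.1 and 12.4 in control cells and 14.6, 13.1, 11.8 and 11.8 in irisin cells. Its level fell by 0.60 with scaling (adjusted p = 0.00296) and was 0.13 higher, uncalled, without. It missed 1.5-fold without control replicate 1 (-0.57), irisin replicate 3 (-0.55) or irisin replicate 4 (-0.53). Slc38a11 is an orphan of the sodium-coupled family, with signals of 10.2, 13.3, 12.5 and 11.7 in control cells and 12.3, 12.2, 12.7 and 14.3 in irisin cells, and with differences of -0.62 (adjusted p = 0.000701) and, without scaling, 0.12, and it just missed 1.5-fold without control replicate 1 or control replicate 2 (-0.58 in both). A second Slc38a11 probe passed background on no array, with mean signals of 1.99 in control and 1.27 in irisin cells. Slc43a3, a carrier of purine bases rather than amino acids, had signals of 9.1, 11.2, 12.8 and 10.9 in control cells and 8.6, 9.5, 12.5 and 12.6 in irisin cells. Its difference was -0.77 (adjusted p = 0.000704) with scaling and -0.03 without. Quantile normalization and cyclic loess called none of these 3 either.

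Slc1a7, Slc6a16 and Slc36a3 were among the dim members called lower also with quantile normalization and with cyclic loess. Slc6a16 is an orphan of the neurotransmitter carrier family. Its signal was 17.53, 21.7, 24.1 and 24.5 on the control arrays and 15.1, 15.6, 17.49 and 21.5 on the irisin arrays, where 3 irisin arrays lay below every control array. The difference was -1.07 (SE 0.10, adjusted p = 0.000106) with the 75th percentile, -0.75 with quantile normalization, -0.71 with cyclic loess and, uncalled, -0.33 with no scaling. Slc1a7, the glutamate carrier EAAT5 of the retina, had signals of 8.2, 13.3, 12.7 and 12.6 in control cells and 7.6, 9.3, 9.1 and 9.8 in irisin cells. It differed by -1.10 (SE 0.12, adjusted p = 0.000150), -0.63, -0.64 and, uncalled, -0.36 under the same 4 scalings. Slc36a3 had signals of 7.4, 7.8, 8.5 and 8.9 in control cells and 4.6, 8.2, 6.3 and 4.8 in irisin cells, with only 2 of the 4 irisin arrays well above background. A second Slc36a3 probe passed background on no array, with mean signals of 1.29 in control and 1.04 in irisin cells. The differences of Slc36a3 were -1.22 (SE 0.22, adjusted p = 0.00185), -0.65, -0.70 and, uncalled, -0.48. It was tested only through the control group, where it was higher, and a filter on all 8 arrays removed it and left 10 members called lower. The unscaled and spike-in differences of these 3 genes were negative but not called.

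**Figure D4:**
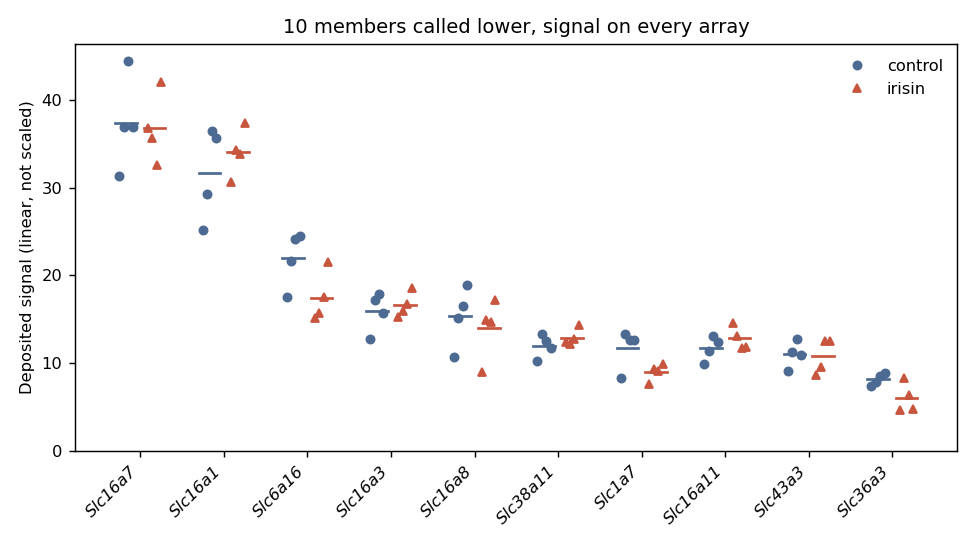
Deposited signal (y axis, linear, not scaled) of 10 members called lower, on each of the 4 control arrays (circles) and 4 irisin arrays (triangles), with the group means as lines. No gene shows a gap between the groups on this scale, while the 75th percentile of the arrays, to which the levels refer, was 1.66 times higher on the irisin arrays.

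With normexp the 10 described members that were called lower all moved to between -0.71 and -0.63. Normexp was run with an offset of 50, which exceeds the signal of every one of these 10 probes on every array.

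**Figure D5:**
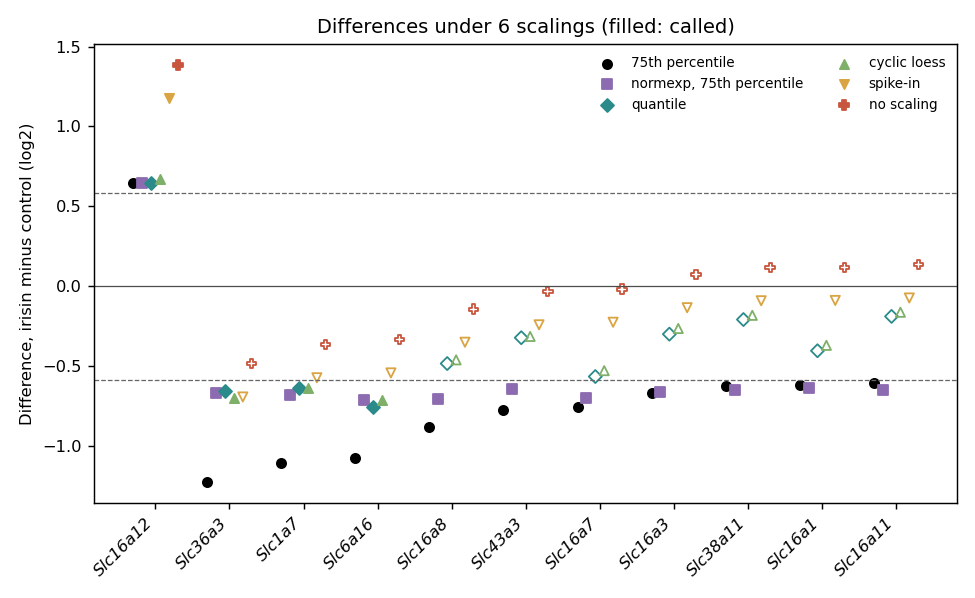
Differences (y axis, log2, irisin minus control) of Slc16a12 and 10 members called lower, when arrays were scaled to the 75th percentile without or with normexp, to equal quantiles, by cyclic loess, to spike-in probes, or not at all. Filled symbols were called and open symbols were not; Slc16a12 is called under all of these, and Slc1a7, Slc6a16 and Slc36a3 under all but the spike-in scaling and no scaling.

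Another 3 members that were not called had an unadjusted p under 0.05. Slc38a10, a carrier of glutamine and related amino acids, had levels of -2.62, -2.65, -2.56 and -2.57 in control cells and -3.24, -3.01, -3.31 and -3.05 in irisin cells. Its difference of -0.55 did not reach 1.5-fold (adjusted p = 0.00120), although the groups did not overlap, and it was 0.19 with no scaling. Without irisin replicate 2 it was called lower (-0.60). Slc6a20a carries proline, with levels of -1.84, -2.02, -1.88 and -1.89 in control cells and -2.26, -2.31, -2.14 and -2.12 in irisin cells. It was lower by 0.30 (adjusted p = 0.0228) without overlap, and 0.44 higher with no scaling. Slc38a9, a lysosomal carrier that senses arginine for mTORC1, had levels of -1.77, -1.84, -1.93 and -1.72 in control cells and -1.26, -1.69, -1.64 and -1.65 in irisin cells. Every irisin array lay above every control array, at a difference of 0.25 (95% interval 0.01 to 0.50, adjusted p = 0.127 in limma). Its other probes gave 0.13 and 0.27, and neither was called.

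By family, the Slc7 family had 8 of 14 carriers tested and the Slc3 family 2 of 2, and no member of either was called. In the Slc38 family 7 of 11 were tested and 1 was called lower, in the Slc6 family 7 of 19 were tested and 2 were called lower, and in the Slc1 family 4 of 7 were tested and 1 was called lower. The Slc36 family (3 of 4 tested) and the Slc43 family (2 of 3 tested) had 1 lower gene each. The Slc16 family was the best covered of the larger ones, with 10 of 14 tested, 1 called higher and 5 called lower. Over all genes tested 0.531% were called higher and 10.2% lower. Every member called lower, of Slc16 or another family, was in the 3 dimmest deciles, where 31.7% of all genes were called lower. Among the lysosomal and proton-coupled carriers, Slc36a1 (PAT1) differed by -0.14 and Slc36a4 by 0.16, and neither was called. A dim second probe of Slc36a1, at a mean control signal of 17.7, gave -0.61 and was called. Also not called were the aromatic amino acid carrier Slc16a10 (0.02), Slc16a13 (0.06), Slc38a6 (0.13), the lysosomal glutamine carrier Slc38a7 (-0.13), the large neutral carrier Slc43a2 (-0.14), the epithelial carrier Slc6a19 (-0.02), the cationic family members Slc7a3 (-0.01) and Slc7a4 (-0.09), and the cystine light chain Slc7a9 (-0.07). Of the 44 members, 31 had a 95% interval that lay inside the 1.5-fold limits.

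The remaining 33 genes were not tested, and 30 of them passed background on no array at all. Their mean signals did not exceed 6.43. They include the glutamate carriers Slc1a1 and Slc1a3, the light chains Slc7a8 and Slc7a10, the neutral carriers Slc38a5 and Slc43a1, the betaine carrier Slc6a12 and most of the GABA and monoamine carriers. Slc1a6 (1 control array), Slc6a3 (1 irisin array) and Slc6a7 (2 control arrays) were well above background on some arrays. For these genes the arrays could not show a difference.

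Genes that work with the carriers were read in the same fit. Of the ancillary proteins 5 were tested, among them basigin (Bsg), the chaperone of lactate carriers, at 0.09, and the kinase Sgk1, which raises the surface amount of several carriers, at -0.01. None was called by limma or by the methods' test, and none had an unadjusted p under 0.05. Of 33 genes of amino acid sensing upstream of mTORC1, such as the Rag GTPases, the Ragulator subunits and the Sestrins, none was called by limma or by the methods' test. One was higher and 4 were lower at an unadjusted p under 0.05, against 5.94% and 23.6% of all genes tested, and the lowest was Sesn2, a leucine sensor and itself an Atf4 target, at -0.39 (adjusted p = 0.0301). The median difference of these 33 genes was -0.01. Castor1, an arginine sensor with a mean control signal of 5.11, was called higher with cyclic loess (0.62) but not with quantile normalization (0.68), and spike-in scaling called Mtor higher. Among 16 other carriers of amino acids and peptides, 1 was called lower, against 10.2% of all genes tested. It was the dim vesicular glutamate carrier Slc17a8 at -0.74, for which cyclic loess and quantile normalization made no call. At an unadjusted p under 0.05, 5 of the 16 were lower and none was higher, against 23.6% and 5.94% of all genes.

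The amino acid response was read from Atf4 and 26 tested genes of its pathway other than carriers, and none was called by limma or by the methods' test. Of these 27 genes, 3 were higher and 6 were lower at an unadjusted p under 0.05, where 5.94% and 23.6% of all genes were, and their median difference was -0.10 against -0.06 for all genes. Asparagine synthetase (Asns), a target used as a marker of the response, had mean signals of 28124 and 35542 and a difference of -0.39 (adjusted p = 0.00603), which was -0.14 with quantile normalization. Atf4 itself differed by -0.35 (adjusted p = 0.0298) and by 0.04 with quantile normalization. Trib3, another target, differed by -0.12 (adjusted p = 0.485). With no scaling 19 of the 27 were called higher, against 9562 of all 14311 genes tested. With spike-in scaling 3 of the 27 were, against 1396 of all genes.

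The C/EBP-ATF response element through which Atf4 acts was searched in RefSeq promoters (GRCm38.p6, 250 bases before to 50 after each start, both strands), in which 54 of the 77 genes have an entry. TTGCATCA or its complement TGATGCAA occurred in 3 of the 74 promoters of these genes, 4.05%, and in 0.895% of all 32851 promoters. The 3 promoters are 1 of Slc1a4 and 2 overlapping ones of Slc7a7, which share the same match. TGACGTCA, which reads the same on both strands, occurred in 1 of the 74, that of Slc38a6 (1.35%, against 1.79% of all), and Slc38a6 differed by 0.13 and was not called. A match describes the letters in this window only. The promoters of Slc1a4 (chr11:20332664-20332963, minus strand) and of Slc7a7 (chr14:54417895-54418194, minus strand) are shown because they hold the element, which is in capitals. In both the match spans the annotated start on which the entry is built. That start is the outer end of the gene for Slc1a4 and lies 2124 bases inside it for Slc7a7, and neither gene was called, with differences of -0.16 and 0.04.
Slc1a4: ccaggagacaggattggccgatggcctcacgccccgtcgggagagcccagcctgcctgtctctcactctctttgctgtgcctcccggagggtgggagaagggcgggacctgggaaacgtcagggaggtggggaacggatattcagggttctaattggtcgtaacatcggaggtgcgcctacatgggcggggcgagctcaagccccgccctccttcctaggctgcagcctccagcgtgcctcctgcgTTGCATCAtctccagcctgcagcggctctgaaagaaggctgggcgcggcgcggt
Slc7a7: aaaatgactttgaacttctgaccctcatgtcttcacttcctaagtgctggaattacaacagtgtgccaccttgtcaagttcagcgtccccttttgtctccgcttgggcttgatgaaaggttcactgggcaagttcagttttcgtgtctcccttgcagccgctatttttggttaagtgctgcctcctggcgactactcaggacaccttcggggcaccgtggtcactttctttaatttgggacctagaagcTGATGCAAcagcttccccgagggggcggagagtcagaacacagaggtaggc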

How the data were processed

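Cy3-labeled RNA was hybridized by the authors to one-color Agilent mouse arrays, and the scans were processed with Agilent Feature Extraction 12, which subtracted background and modeled error. The deposited values, in the scanner files and in the value table, are processed signal intensity on a linear scale with no normalization between arrays. From these, control spots were dropped, and so were spots marked as outliers, at most 0.463% of an array. The spots of a probe were averaged, and each array's 75th percentile was subtracted after taking log2. For gene names, accessions were looked up in RefSeq (GRCm38.p6), with a match for 28663 probes (72.7%). The files place probes on mm9, so their coordinates were not used.

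A probe entered the test when Feature Extraction marked it as well above background on every array of the control group, of the irisin group or of both. The test was limma (version 3.58.1, lmFit with eBayes, in R 4.3.3) over the whole array, with Benjamini-Hochberg adjustment over all probes tested. A call needed 1.5-fold and an adjusted p under 0.05. The tested probe with the highest mean level stood for its gene. The fit was tested on simulated data. Precision is limited by the number of arrays, 8, which were grouped by their labels. An exact permutation test was added for single genes. Files were read and plots drawn in Python 3.11.15 (pandas 2.3.3, matplotlib 3.10.9).

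The members and the gene lists were chosen with earlier results of these data known, and the lists were written from general knowledge. Values on every array are given for called members, for uncalled ones with p under 0.05 that passed background on all 8 arrays, and for the 12 with the highest control signal. Other members are given by difference or by count, and Slc7a2 and the other genes named outside this rule were chosen after their values were seen. Some members are counted but not reported here by name.

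The alternatives were normexp background correction (offset 50), quantile normalization, cyclic loess, scaling to the median of detected probes or to 8 spike-in probes, no scaling, the deposited value table, other filters, outlier spots kept in, robust eBayes with a trend on intensity, the methods' test, other thresholds, the replicate number as a block, averaging a gene's probes, and each array left out. For normexp, spots with a non-uniform local background, at most 40 on an array, were given the median background of their array.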

Additional observations from a re-analysis of the deposited data

Results flagged for a closer look

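Slc38a9, the lysosomal arginine carrier, stood out in irisin replicate 1, where its level was -1.26 on the log2 scale relative to the 75th percentile, while the other irisin arrays lay between -1.69 and -1.64. The gap to the nearest array was 0.871 of the range of the group, above the 95% critical value of Dixon's test for 4 values. A total of 54 groups of 4 arrays, 2 for each of 27 members, were checked, and about 1 in 20 is expected to pass by chance. Leaving out irisin replicate 1 lowered the difference of Slc38a9 from 0.25 to 0.15, and it was not called in either case.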

How the results depend on the processing

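Each count was recomputed under 24 alternatives. The number of members called higher, 1, became 2 with quantile normalization or cyclic loess, 3 with spike-in scaling (Slc38a9 among them), 30 with no scaling, 0 with the methods' test or at a 2-fold threshold, and 0 to 1 with 1 array left out, 0 only without irisin replicate 3. The number of members called lower, 11, became 4 with quantile normalization or cyclic loess, 0 with spike-in scaling or no scaling, 35 with no filter on dim probes and 3 at 2-fold, and it was 9 to 12 with 1 array left out. Of all 14311 genes, 286 were called higher after quantile normalization, 306 after cyclic loess and 1396 when arrays were scaled to spike-in probes. Unscaled arrays gave 9562 higher genes, the methods' test 48 and the 2-fold threshold 6. Called lower were 546 of the 14311 with quantile normalization, 488 with cyclic loess and 384 at 2-fold. Scaling to spike-in probes gave 117 lower genes, and unscaled arrays gave 81. With no filter 6263 of 21612 were called lower. The median difference of the members, -0.06, was -0.16 with normexp, 0.47 with spike-in scaling, 0.68 with no scaling and -0.55 with no filter, and -0.12 to -0.020 with 1 array left out, the lowest without irisin replicate 2. With no filter 33 genes at background entered.

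With no scaling the direction turned for Slc16a1 (0.12), Slc16a11 (0.13), Slc16a3 (0.074) and Slc38a11 (0.12), which were called lower, and for Slc16a6 (0.71), Slc3a2 (0.63), Slc6a6 (0.63), Slc6a9 (0.73) and Slc7a1 (0.61), which were then called higher. It also turned for Slc1a4, Slc38a10 and Slc6a20a, which were called in neither setting. Of all 44 members, 16 had a positive difference with the 75th percentile and 37 with no scaling. The median over all genes was 0.67 there, 0.47 with spike-in scaling and -0.06 with the 75th percentile. Of 647 recomputed values of single members, 577 kept their side of the threshold and direction where called, 50 lost the call, 11 gained it and 9 reversed. An uncalled member counted as reversed only when it was then called in the other direction.

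With the replicate number as a block (replicate block) 1 member was called higher and 11 lower, and the median difference was -0.06. Arrays with the same number did not deviate together (correlations 0.11, -0.35, -0.13 and 0.17), so no pairing by number was seen. The labels do not say whether samples with the same number belong together, and 4 correlations cannot exclude it. Slide and scan could not be fitted as a block, since each held 1 group. Signal over background limits the dim members, whose signals of 4.58 to 44.4 compare with 4.21 to 4.73 for the dimmest probe well above background on an array.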
